A study of Homo sapiens with 16 samples.

Results

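Annexins are a family of proteins that bind phospholipid membranes when calcium is present. They share a conserved core of repeats that carries the calcium sites and differ in a short or long N-terminal region that binds partners such as S100 proteins. They are known for roles in membrane repair, vesicle traffic and the damping of inflammation, and ANXA1, a glucocorticoid-induced protein that signals through formyl peptide receptors, is the member best known in immune cells. The genes described here are ANXA1, ANXA2, ANXA4, ANXA5, ANXA6, ANXA7 and ANXA11, which are 7 of the 64252 genes in the count tables. They were chosen by name, with ANXA1 included because its mRNA was already known to be lower in these cells after knockdown of SH2D1A, so its knockdown values are given as a description with no test. The question asked of the other 6 members was whether they moved with it.

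Messenger RNA was sequenced from Jurkat and 6T-CEM, established T-cell acute lymphoblastic leukemia lines that received either an shRNA against SH2D1A (sh-SH2D1A) or a control shRNA (sh-NC). SH2D1A encodes SAP, an adaptor of SLAM-family receptors in T cells. The groups were Jurkat sh-SH2D1A and Jurkat sh-NC at day 10, the same pair at day 8, 6T-CEM sh-SH2D1A and 6T-CEM sh-NC at day 10, and the same pair at day 5, with 2 libraries in each of the 8 groups. The labels give 1 shRNA name per arm, and neither the event from which days were counted nor whether the 2 libraries of a group were separate cultures, so a p-value here gauges spread among libraries, and that spread may be technical alone.

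Library totals ranged from 27217899 to 33788024 counts, and a gene with 0 counts could stand at up to 3 counts, which is 0.0902 to 0.113 CPM (counts for each 1000000 counts of the library), with counting error alone considered. The log2 change of SH2D1A itself, sh-SH2D1A over sh-NC, was -1.60 in Jurkat at day 10, -1.72 at day 8, -0.996 in 6T-CEM at day 10 and -1.71 at day 5. All 10 T cell markers examined were above 1 CPM in at least 1 library of every line and arm. Their summed level was 2058 to 2574 CPM in Jurkat sh-SH2D1A and 2387 to 2735 CPM in Jurkat sh-NC libraries, and 1220 to 1359 CPM in 6T-CEM sh-SH2D1A and 1128 to 1435 CPM in 6T-CEM sh-NC libraries. Of these 10 markers 4 were called lower in Jurkat at day 10, where 3.78% of all genes were called in either direction, and 6 at day 8, where 7.13% were called lower. In 6T-CEM 3 were called lower and 3 higher at day 10, where 14.0% were called in either direction, and 0 at day 5, where 2.11% were; their part in the annexin changes was not tested. The myeloid list, which marks cells rich in ANXA1, summed to at most 3.13 CPM in any sh-SH2D1A library and at most 2.80 CPM in any sh-NC library. The 2 sh-SH2D1A libraries of 6T-CEM at day 5 differed more from each other than those of any other group, with a median absolute log2 difference of 0.302 over 22032 genes, against 0.131 to 0.198 in the other groups. In bulk RNA, fewer cells of a kind and less RNA per cell cannot be told apart, and each line and day is its own table, so line, day and any batch that goes with a table cannot be told apart.

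The promoters of 4 members are shown because ANXA11, ANXA2 and ANXA4 are the 3 relatives that passed the test of the mean change, and their windows can be read beside that of ANXA1. Each is 250 bases before to 50 bases after a RefSeq start (GRCh38.p14), read 5′ to 3′ on the gene's strand, and capitals mark matches to the motifs searched on either strand.
ANXA1: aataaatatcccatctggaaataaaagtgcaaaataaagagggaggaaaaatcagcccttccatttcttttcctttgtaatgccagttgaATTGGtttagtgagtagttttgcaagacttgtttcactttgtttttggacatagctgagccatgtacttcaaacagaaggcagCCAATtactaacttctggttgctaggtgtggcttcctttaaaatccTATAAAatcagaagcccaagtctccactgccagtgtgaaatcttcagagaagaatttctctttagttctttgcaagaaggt
ANXA11: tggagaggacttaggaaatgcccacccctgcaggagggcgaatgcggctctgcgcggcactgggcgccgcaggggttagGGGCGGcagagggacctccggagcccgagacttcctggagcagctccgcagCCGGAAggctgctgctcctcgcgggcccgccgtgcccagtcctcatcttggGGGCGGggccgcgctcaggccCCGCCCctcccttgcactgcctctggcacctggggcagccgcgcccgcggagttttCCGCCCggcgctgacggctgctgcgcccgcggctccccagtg
ANXA2: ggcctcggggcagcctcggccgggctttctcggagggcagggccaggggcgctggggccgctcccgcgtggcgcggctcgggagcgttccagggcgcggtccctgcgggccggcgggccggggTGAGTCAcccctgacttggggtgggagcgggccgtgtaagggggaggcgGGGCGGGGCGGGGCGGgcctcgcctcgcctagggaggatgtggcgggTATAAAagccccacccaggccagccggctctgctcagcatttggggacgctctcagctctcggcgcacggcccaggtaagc
ANXA4: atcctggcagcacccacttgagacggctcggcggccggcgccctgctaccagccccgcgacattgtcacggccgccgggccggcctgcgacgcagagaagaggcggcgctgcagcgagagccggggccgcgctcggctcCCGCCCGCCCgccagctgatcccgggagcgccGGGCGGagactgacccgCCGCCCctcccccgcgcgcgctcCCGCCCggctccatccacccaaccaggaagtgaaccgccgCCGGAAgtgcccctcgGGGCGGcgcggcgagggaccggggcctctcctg
The ANXA1 window (chr9:73151615-73151914, plus strand) holds 0 CG pairs, as do 3.96% of the 35116 promoter windows in the table, whose median is 14 CG pairs. It holds a TATA box (TATAAA) that begins 31 bases before the start and CCAAT boxes (CCAAT) at 160 and 77 bases before it. The ANXA11 window (chr10:80205488-80205787, minus strand), 1 of 3 in RefSeq, has 30 CG pairs, 4 GC boxes (GGGCGG) and an ETS motif (CCGGAA), and is shown because its start lies nearest to that of the gene. The other ANXA11 windows differ from it, with 12 CG pairs, a TATA box that begins 61 bases before the start and no GC box in chr10:80205759-80206058, and with 7 CG pairs and a CCAAT box 49 bases before the start in chr10:80204442-80204741. The ANXA2 window (chr15:60397937-60398236, minus strand) has 32 CG pairs, 3 overlapping GC boxes, an AP-1 motif (TGANTCA) and a TATA box that, as in ANXA1, begins 31 bases before the start. The ANXA4 window (chr2:69643558-69643857, plus strand), 1 of 2, has 44 CG pairs, 6 GC boxes of which 2 overlap, and an ETS motif. A TATA box occurs in 11.53% of all windows, a CCAAT box in 34.61%, a GC box in 44.95%, an ETS motif in 17.25% and an AP-1 motif in 7.709%. The promoter windows of ANXA5, ANXA6 and ANXA7 hold 10 to 36 CG pairs and no TATA box. RUNX (TGTGGT), NF-kB, CRE (TGACGTCA) and E-box (CACGTG) motifs were searched too, and none is in the ANXA1 window. These matches describe letters and do not show that a factor binds.

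ANXA1 (ENSG00000135046, chromosome 9, 73151757 to 73170393, GRCh38, plus strand, protein coding) was lower in sh-SH2D1A than in sh-NC libraries in both lines. Its level in Jurkat at day 10 was 34.6 and 33.6 CPM in sh-SH2D1A libraries, against 89.5 and 96.5 CPM in sh-NC libraries. At day 8 it was 27.3 and 25.7 CPM in sh-SH2D1A and 66.1 and 65.9 CPM in sh-NC libraries. Both Jurkat tables thus keep a clear gap between the arms, and sh-SH2D1A libraries held 36.7% of the sh-NC level at day 10 and 40.2% at day 8. ANXA1 in 6T-CEM at day 10 was 1.39 and 1.47 CPM in sh-SH2D1A libraries (45 and 49 counts), against 9.60 and 10.1 CPM in sh-NC libraries (285 and 322 counts). The 6T-CEM day 5 levels were 4.24 and 5.24 CPM in sh-SH2D1A and 7.87 and 11.4 CPM in sh-NC libraries. The arms did not overlap in any of the 4 tables. On the log2 scale sh-SH2D1A over sh-NC was -1.44 ± 0.09 in Jurkat at day 10, -1.32 ± 0.07 at day 8, -2.78 ± 0.19 in 6T-CEM at day 10 and -1.01 ± 0.28 at day 5 (estimate ± SE, edgeR). The 6T-CEM day 10 difference was a 6.84-fold lower level, and the mean of the 4 changes was -1.64 ± 0.08. The SH2D1A change was smallest where the ANXA1 change was largest, in 6T-CEM at day 10, at -0.996 ± 0.05 (edgeR). Without the 6T-CEM day 5 table the mean ANXA1 change was -1.85.

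Over all 16 libraries ANXA1 spanned 69.3-fold, whereas the other 6 members spanned between 1.68-fold and 3.05-fold. The order of its group means ran from Jurkat sh-NC at day 10 (93.0 ± 5.0 CPM, SD, n = 2) through Jurkat sh-NC at day 8, Jurkat sh-SH2D1A at day 10 (34.1 ± 0.68 CPM), Jurkat sh-SH2D1A at day 8, 6T-CEM sh-NC at day 10 and at day 5, 6T-CEM sh-SH2D1A at day 5 and 6T-CEM sh-SH2D1A at day 10 (1.43 ± 0.06 CPM). Of the neighbours in that order, only 6T-CEM sh-NC at day 10 and at day 5 overlapped. Every Jurkat library, knocked down or not, was above every 6T-CEM library.

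**Figure D1:**
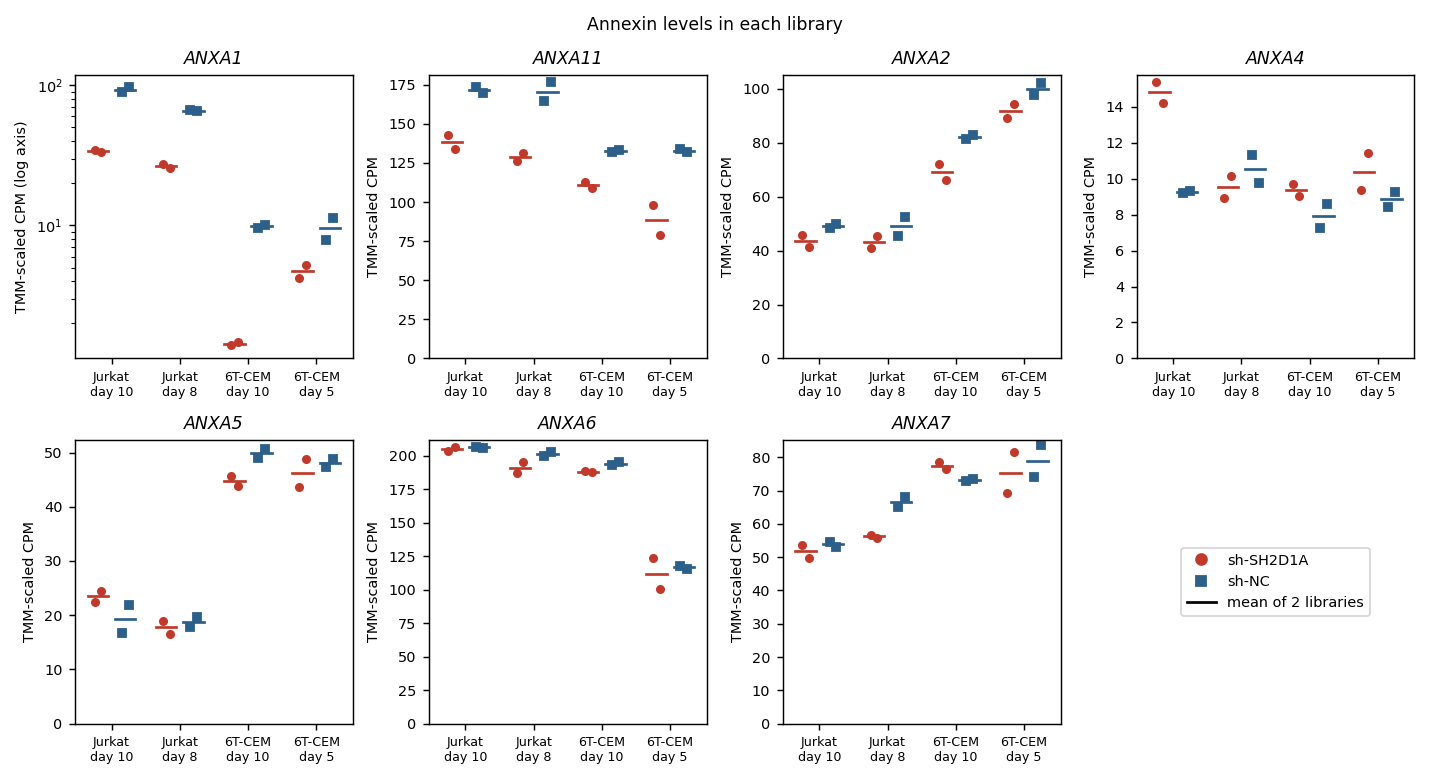
TMM-scaled CPM of each annexin in each of the 16 libraries, by line and day, with sh-SH2D1A as red circles, sh-NC as blue squares and a bar at the mean of 2 libraries; the ANXA1 axis is logarithmic and the others start at 0. The arms of ANXA1 and of ANXA11 are apart in all 4 tables, while ANXA6 stands near 200 CPM in every group except 6T-CEM at day 5.

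The 6 relatives of ANXA1 did not share a direction, except in Jurkat at day 8, where all 6 changes were below 0 and 2 were called. ANXA11 and, by a smaller amount, ANXA2 were lower with sh-SH2D1A, ANXA4 was higher, and ANXA5, ANXA6 and ANXA7 passed no test of the mean change over the 4 tables. A gene was called when its p-value from edgeR's quasi-likelihood test, adjusted by Benjamini-Hochberg over all genes tested, was under 0.05. Of the 6 relatives 1 was called in Jurkat at day 10 (ANXA4, higher), where 3.78% of genes were called and 1.26% called higher. At Jurkat day 8, 2 were called (ANXA11 and ANXA7, lower), where 12.4% were called and 7.13% called lower. In 6T-CEM 2 were called at day 10 (ANXA11 and ANXA2, lower), where 14.0% were called and 7.42% called lower, and 0 at day 5, where 2.11% were called; DESeq2 called 1 there, ANXA11, and in edgeR ANXA11 alone had an unadjusted p under 0.05, at 0.00218. In the mean of the 4 changes 2 were called lower and 1 higher, where 23.0% of genes were called, 12.3% lower and 10.7% higher. ANXA11, ANXA2 and ANXA6 had a negative change in all 4 tables, as did 18.3% of the 17521 genes tested in all 4. That of ANXA6 in 6T-CEM at day 5 was 0.10 without sh-SH2D1A replicate 2. The median log2 change of the 6 relatives was -0.03 in Jurkat at day 10, -0.17 at day 8, -0.10 in 6T-CEM at day 10, -0.05 at day 5 and -0.06 in the mean, against medians between -0.003 and 0.005 over all genes tested. Of the 6 relatives, 4 had a change below 0 in Jurkat at day 10, 6 at day 8, 4 in 6T-CEM at day 10, 5 at day 5 and 5 in the mean. Of all genes tested, 49.11 to 50.35% had a change below 0 in these comparisons. All 6 relatives passed the filter on low counts in every comparison.

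ANXA11 (chromosome 10, 80150889 to 80205572, minus strand), whose long N-terminal region binds PDCD6 and which ties RNA granules to lysosomes, was lower in every table. It stood at 143 and 134 CPM in sh-SH2D1A and 173 and 169.5 CPM in sh-NC libraries of Jurkat at day 10. At day 8 the levels were 126 and 131 CPM in sh-SH2D1A and 165 and 177 CPM in sh-NC libraries. In both Jurkat tables the higher sh-SH2D1A library stayed below the lower sh-NC library. ANXA11 in 6T-CEM at day 10 was 113 and 109 CPM in sh-SH2D1A and 132 and 133 CPM in sh-NC libraries. At day 5 it was 98.4 and 79.0 CPM in sh-SH2D1A and 134 and 132 CPM in sh-NC libraries. The arms were apart in all 4 tables, as they were, with sh-SH2D1A below, for 6.75% of genes tested in all 4. The log2 changes were -0.31 ± 0.08 in Jurkat at day 10 (adjusted p = 0.0619), -0.41 ± 0.06 at day 8 (adjusted p = 0.00426), -0.25 ± 0.04 in 6T-CEM at day 10 (adjusted p = 0.0035) and -0.57 ± 0.14 at day 5 (adjusted p = 0.0731, all by edgeR). The mean of the 4 was -0.39 ± 0.04 (edgeR adjusted p = 1.51e-05), and it was called in all 22 alternatives run on it, at -0.43 to -0.32. At 6T-CEM day 5 the change was -0.74 without sh-SH2D1A replicate 1 and -0.42 without replicate 2. Its size there thus depends on which of these unlike libraries is kept.

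ANXA2 (chromosome 15, 60347134 to 60402883, minus strand), which pairs with S100A10 on membranes and binds plasminogen activators at the cell surface, was lower by a smaller amount. Its level in 6T-CEM at day 10 was 72.2 and 66.3 CPM in sh-SH2D1A libraries, against 81.6 and 83.1 CPM in sh-NC libraries. At day 5 it was 89.2 and 94.5 CPM in sh-SH2D1A and 97.9 and 102 CPM in sh-NC libraries. In Jurkat it was 45.6 and 41.5 CPM in sh-SH2D1A and 48.3 and 49.9 CPM in sh-NC libraries at day 10. At day 8 it was 41.0 and 45.6 CPM in sh-SH2D1A and 45.4 and 52.7 CPM in sh-NC libraries, where the arms overlapped. The change passed the test in 1 table, 6T-CEM at day 10, at -0.25 ± 0.05 (edgeR adjusted p = 0.0186), and this call was lost when replicate 2 of sh-NC (adjusted p = 0.0692) or of sh-SH2D1A (0.0551) was left out, and with no filter on low counts or all 16 libraries in the fit. The mean of the 4 was -0.18 ± 0.04 (edgeR adjusted p = 0.00826), a call kept in all 22 alternatives. ANXA2 shares 5.91% of its 50-base words with the processed pseudogene ANXA2P2, which held 57 to 149 counts per library against 1207 to 2875 for ANXA2. Some ANXA2 reads could thus be placed in either. The share of words is not a share of reads, which was not measured.

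ANXA4 (chromosome 2, 69644425 to 69827100, plus strand), a membrane-binding annexin studied mainly in epithelia, was the 1 member called higher. In Jurkat at day 10 it was 15.4 and 14.2 CPM in sh-SH2D1A libraries, against 9.20 and 9.31 CPM in sh-NC libraries, a log2 change of 0.68 ± 0.15 (edgeR adjusted p = 0.0382). At day 8 it was 8.94 and 10.1 CPM in sh-SH2D1A and 11.3 and 9.74 CPM in sh-NC libraries, which overlapped (-0.15 ± 0.16). The higher level was thus seen at 1 of the 2 Jurkat days, and the day 10 minus day 8 difference of the change was 0.82 ± 0.22 with an adjusted p of 0.441 (edgeR), in a comparison where 0.00454% of genes were called. In 6T-CEM ANXA4 was 9.69 and 9.02 CPM in sh-SH2D1A and 7.28 and 8.58 CPM in sh-NC libraries at day 10. At day 5 it was 9.35 and 11.4 CPM in sh-SH2D1A and 8.45 and 9.28 CPM in sh-NC libraries. The mean of the 4 was 0.25 ± 0.08 (edgeR adjusted p = 0.0339). Over all alternatives the estimates stayed at 0.618 to 0.735 in Jurkat at day 10 and at 0.215 to 0.289 in the mean. Neither call was kept in all of them. That of Jurkat day 10 was lost without either sh-NC library or without replicate 1 of sh-SH2D1A (adjusted p = 0.089 to 0.114), and that of the mean in 10 of the 16 fits that left out 1 library (adjusted p = 0.0507 to 0.0945) and with no filter on low counts (0.0927). The mean was still called without replicate 1 of Jurkat day 8 sh-SH2D1A or sh-NC, replicate 2 of 6T-CEM day 10 sh-SH2D1A or sh-NC, replicate 1 of 6T-CEM day 5 sh-SH2D1A or replicate 2 of 6T-CEM day 5 sh-NC. ANXA4 overlaps AAK1 on the other strand, which held 1667 to 3413 counts per library, up to 1228% of those of ANXA4. The strand setting is not given in the sources used here, so reads of the overlap cannot be told apart. AAK1 changed by 0.08 ± 0.05 in the mean (edgeR adjusted p = 0.223). Its change in Jurkat at day 10, where ANXA4 was called, is not given here, and its part in the ANXA4 values was not tested.

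ANXA7 (chromosome 10, 73375101 to 73414076, minus strand), also called synexin and known for aggregating secretory granules, was 56.5 and 55.9 CPM in sh-SH2D1A and 65.1 and 68.1 CPM in sh-NC libraries of Jurkat at day 8. That change was -0.25 ± 0.06 (edgeR adjusted p = 0.0336) and it was lost without sh-NC replicate 2, sh-SH2D1A replicate 1 or sh-SH2D1A replicate 2 (adjusted p = 0.0917 to 0.188). In 6T-CEM at day 10 its arms were apart the other way, at 78.5 and 76.3 CPM in sh-SH2D1A and 73.0 and 73.6 CPM in sh-NC libraries, with no call (0.08 ± 0.05, edgeR adjusted p = 0.275). In Jurkat at day 10 it was 53.8 and 49.8 CPM in sh-SH2D1A and 54.7 and 53.1 CPM in sh-NC libraries. The 6T-CEM day 5 levels were 69.3 and 81.5 CPM in sh-SH2D1A and 74.0 and 83.5 CPM in sh-NC libraries, and the arms overlapped in both. The mean change was -0.07, with a 95% interval of -0.16 to 0.02 on the log2 scale.

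ANXA5 (chromosome 4, 121667955 to 121697113, minus strand), the phosphatidylserine binder used to stain dying cells, was called in no table. In Jurkat at day 10 it was 22.5 and 24.5 CPM in sh-SH2D1A and 16.7 and 21.9 CPM in sh-NC libraries. The 6T-CEM day 10 levels were 45.7 and 43.8 CPM in sh-SH2D1A and 49.0 and 50.6 CPM in sh-NC libraries. The arms were apart in both but in opposite directions, and neither change was called (edgeR adjusted p = 0.346 and 0.132). With 2 libraries in each arm, such gaps can arise from spread alone. The difference between the changes, Jurkat minus 6T-CEM, was 0.44 ± 0.17 with an edgeR adjusted p of 0.395, where 0.812% of genes were called. At Jurkat day 8 the levels were 18.9 and 16.6 CPM in sh-SH2D1A and 17.9 and 19.8 CPM in sh-NC libraries. At 6T-CEM day 5 they were 43.6 and 48.9 CPM in sh-SH2D1A and 47.3 and 48.9 CPM in sh-NC libraries, so the arms overlapped at both of these days. The mean change was -0.002, with a 95% interval of -0.13 to 0.13.

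ANXA6 (chromosome 5, 151100712 to 151157882, minus strand), the largest member with a longer run of core repeats than the others, was called in no table and had arms that lay close together. It was 204 and 206 CPM in sh-SH2D1A and 207 and 206 CPM in sh-NC libraries of Jurkat at day 10. At day 8 it was 187 and 195 CPM in sh-SH2D1A and 199.5 and 202.5 CPM in sh-NC libraries. In 6T-CEM at day 10 it was 188.5 and 188 CPM in sh-SH2D1A and 193 and 195 CPM in sh-NC libraries. At 6T-CEM day 5 the sh-SH2D1A libraries, at 124 and 100.5 CPM, lay on either side of the sh-NC libraries, at 118 and 116 CPM. The mean change was -0.05 with a 95% interval of -0.13 to 0.04, which holds no change as large as that of ANXA11. Without 6T-CEM day 5 sh-SH2D1A replicate 1 the mean change was -0.08.

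**Figure D2:**
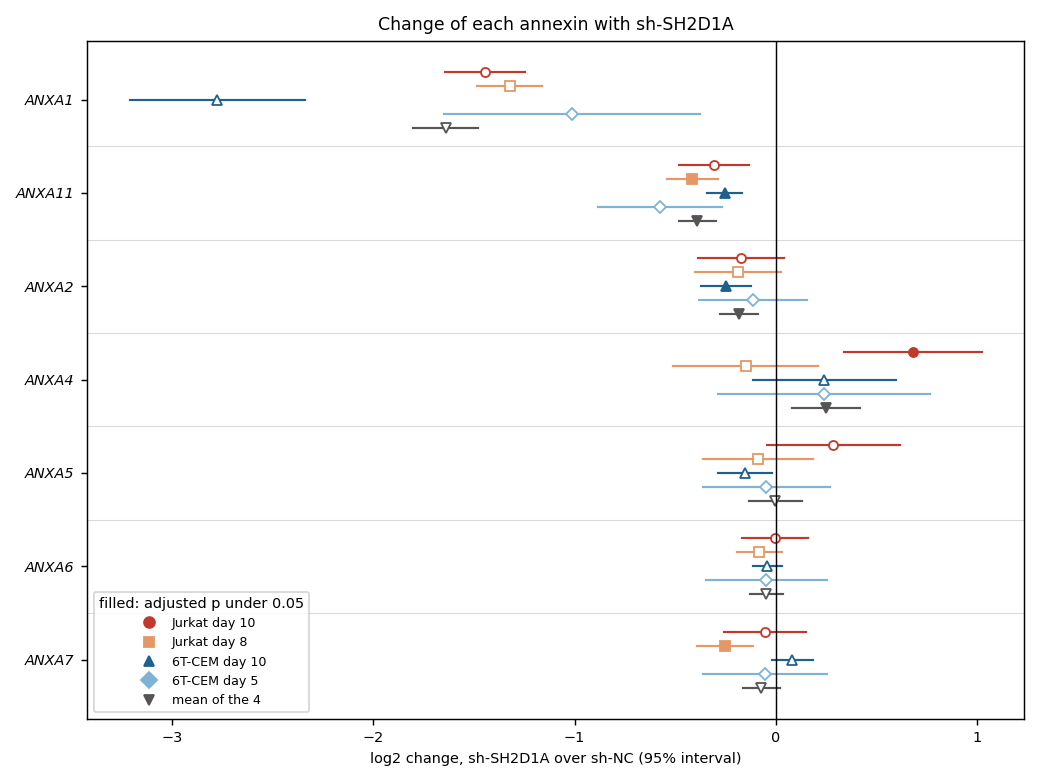
Log2 change of each annexin, sh-SH2D1A over sh-NC, in each of the 4 tables and in their mean, with 95% intervals from edgeR; filled markers are called at an adjusted p under 0.05, and ANXA1, which was not tested, has open markers. ANXA1 lies at -2.78 to -1.01 and ANXA11 at -0.57 to -0.25, ANXA2 is lower in all 4 tables, and ANXA4 is at 0.68 in Jurkat at day 10.

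None of the 6 relatives was called for a difference of its knockdown change between lines or days, by edgeR or by DESeq2. The 3 comparisons were Jurkat minus 6T-CEM at day 10, day 10 minus day 8 in Jurkat and day 10 minus day 5 in 6T-CEM, and in the last 0.681% of genes were called. At an unadjusted edgeR p under 0.05 there was 1 relative in each: ANXA5 in the first, ANXA4 in the second and ANXA11 in the third. The ANXA11 difference was 0.33 ± 0.12 (edgeR adjusted p = 0.259), and 0.49 without 6T-CEM day 5 sh-SH2D1A replicate 1. The ANXA1 change differed by 1.33 ± 0.22 on the log2 scale between Jurkat and 6T-CEM at day 10, by -0.13 ± 0.18 between the Jurkat days and by -1.76 ± 0.24 between the 6T-CEM days, given here as a description. The last value was -1.51 without 6T-CEM day 5 sh-NC replicate 1 and -2.04 without replicate 2.

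The annexin levels differed between the lines. In sh-NC cells at day 10, 5 of the 7 members differed between Jurkat and 6T-CEM, with ANXA1 and ANXA11 higher and ANXA2, ANXA5 and ANXA7 lower in Jurkat, where 36.6% of genes were called, 18.4% higher and 18.2% lower. ANXA1 was 9.43-fold higher in Jurkat, at 93.0 ± 5.0 CPM in Jurkat and 9.86 ± 0.37 CPM in 6T-CEM (SD, n = 2 each; log2 3.24 ± 0.14, edgeR adjusted p = 7.75e-10). ANXA5 was 2.58-fold lower in Jurkat, at 19.3 ± 3.8 CPM in Jurkat and 49.8 ± 1.1 CPM in 6T-CEM (log2 -1.37 ± 0.12, edgeR adjusted p = 9.98e-07). ANXA2 differed by -0.75 ± 0.09 (edgeR adjusted p = 1.38e-05), ANXA7 by -0.44 ± 0.09 (0.000983) and ANXA11 by 0.37 ± 0.08 (0.00326). ANXA6, at 0.09 ± 0.08, and ANXA4, at 0.22 ± 0.16, were not called. The same 5 members were called under each alternative tried.

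Between days, ANXA6 was higher and ANXA2 lower in 6T-CEM sh-NC cells at day 10, and no member was called in Jurkat sh-NC cells by edgeR. Day 10 minus day 8 in Jurkat gave 0 of 7 calls in edgeR, where 3.4% of genes were called, and 2 in DESeq2, with ANXA1 and ANXA7 at an unadjusted edgeR p under 0.05. ANXA1 was 0.49 ± 0.13 higher at day 10 (edgeR adjusted p = 0.051, DESeq2 0.00405), and 4 of the 9 alternatives called it, while ANXA7 was at -0.31 ± 0.09 (edgeR 0.0681, DESeq2 0.0317). Day 10 minus day 5 in 6T-CEM gave 2 calls of 7, where 39.9% of genes were called. ANXA6 was 194 ± 1.4 CPM at day 10 and 117 ± 1.4 CPM at day 5 (SD, n = 2 each; log2 0.73 ± 0.08, edgeR adjusted p = 5.84e-06), a difference held in all 9 alternatives. ANXA2 was 0.28 lower at day 10 (-0.28 ± 0.09, edgeR adjusted p = 0.0183), a call lost without day 5 replicate 2, day 10 replicate 1 or day 10 replicate 2 (adjusted p = 0.109 to 0.118). ANXA1 differed by 0.04 ± 0.15 between these days.

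**Figure D3:**
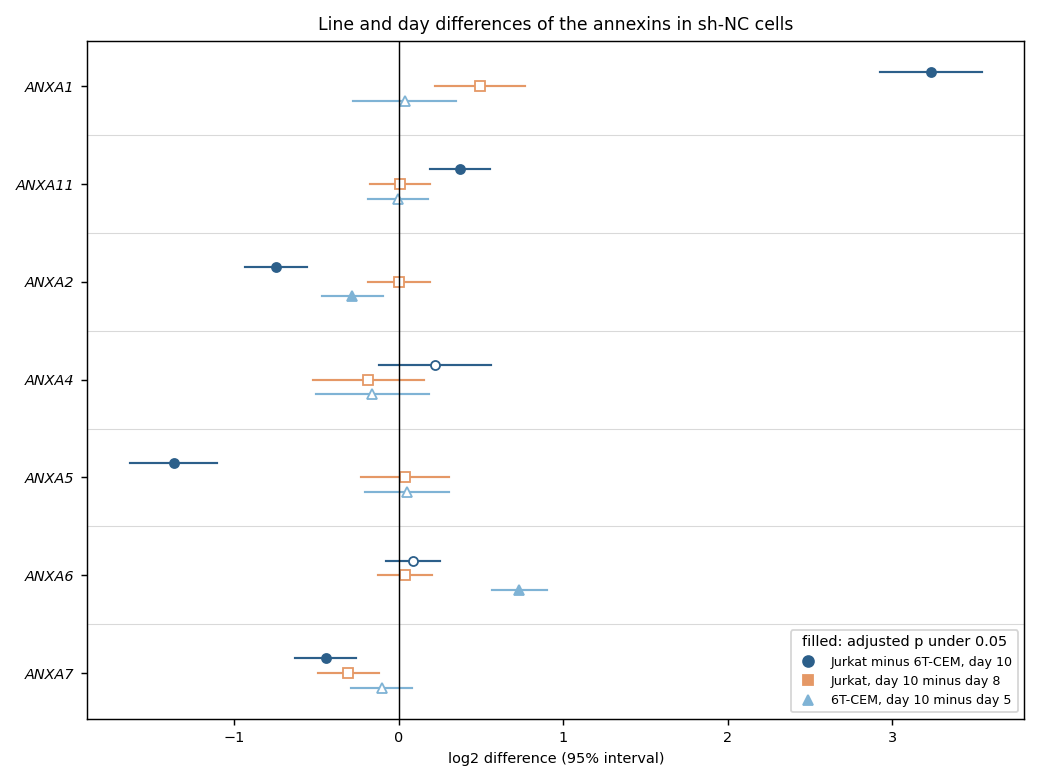
Log2 differences of each annexin in sh-NC cells, Jurkat minus 6T-CEM at day 10 and day 10 minus the earlier day in each line, with 95% intervals from edgeR and filled markers where the adjusted p was under 0.05. ANXA1 at 3.24 and ANXA5 at -1.37 stand farthest from 0 between the lines, and ANXA6 at 0.73 between the 6T-CEM days.

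Levels of different annexins were compared per length, as TPM, the counts divided by the length of a gene's merged exons and scaled to 1000000 in each library. In Jurkat sh-SH2D1A cells at day 10 the order was ANXA6 (142 ± 3.6 TPM, SD, n = 2), ANXA7 (68.1 ± 2.5), ANXA11 (61.1 ± 1.7), ANXA5 (29.2 ± 2.2), ANXA1 (28.2 ± 0.08), ANXA2 (18.6 ± 0.94) and ANXA4 (5.04 ± 0.20). In Jurkat sh-NC cells of that day it was ANXA6 (140.4 ± 0.36 TPM), ANXA1 (75.3 ± 4.4), ANXA11 (74.4 ± 0.82), ANXA7 (69.6 ± 1.1), ANXA5 (23.5 ± 4.7), ANXA2 (20.6 ± 0.59) and ANXA4 (3.09 ± 0.04). ANXA1 thus stood with ANXA11 behind ANXA6 in sh-NC cells and with ANXA5 in sh-SH2D1A cells, and neither of those pairs differed beyond the libraries' spread on this scale. In 6T-CEM sh-NC cells at day 10 ANXA6 (128 ± 0.02 TPM), ANXA7 (92.0 ± 0.11), ANXA5 (59.0 ± 0.90), ANXA11 (55.9 ± 0.03) and ANXA2 (33.5 ± 0.19) came before ANXA1 (7.76 ± 0.23), with ANXA4 (2.58 ± 0.28) last. With sh-SH2D1A ANXA1 came last, at 1.16 ± 0.06 TPM, below ANXA4 at 3.11 ± 0.12 TPM. Measured over the longest transcript instead, the levels moved. For Jurkat at day 10 ANXA1 was then 43.8 TPM and ANXA5 37.9 TPM in sh-SH2D1A cells, and ANXA1 was 117 TPM and ANXA11 68.4 TPM in sh-NC cells, so neither pair was close. In 6T-CEM sh-NC cells at day 10 ANXA2 was 65.0 TPM and ANXA11 53.0 TPM, the reverse of their order over merged exons, so orders of nearby members are not settled by these files.

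ANXA1 made up 8.01 and 7.96% of the summed TPM of the 7 members in Jurkat sh-SH2D1A libraries at day 10, against 18.0 and 19.0% in sh-NC libraries. In 6T-CEM at day 10 the shares were 0.306 and 0.333% in sh-SH2D1A and 2.01 and 2.08% in sh-NC libraries. The summed TPM of the other 6 members was 324 and 325 in sh-SH2D1A and 329 and 334 in sh-NC libraries of Jurkat at day 10, and 362 and 359 in sh-SH2D1A and 370.4 and 372 in sh-NC libraries of 6T-CEM at day 10. The sum without ANXA1 was lower in both sh-SH2D1A libraries than in both sh-NC libraries of each table. By CPM this held for 6.75% of single genes tested in all 4 tables. Of the 6 members in the sum, only ANXA11 was apart in this way in all 4 by CPM. By TPM, the scale of the sum, ANXA2 was apart in all 4 too. Its closest arms were in Jurkat at day 8, at 17.2 and 19.2 TPM in sh-SH2D1A and 19.5 and 21.6 TPM in sh-NC libraries. The sum was not tested.

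Among the remaining annexins of the tables, ANXA3 and ANXA9 passed the filter on low counts, and ANXA8, ANXA8L1, ANXA10 and ANXA13 had at most 5 counts in any library. ANXA3 spanned 1.18 to 6.83 CPM and ANXA9 1.26 to 5.03 CPM, and neither was called with knockdown in any table or in the mean (ANXA3 0.09 ± 0.14; ANXA9 0.32 ± 0.12, edgeR adjusted p = 0.076). The ANXA3 mean averages changes of unlike sign. They were 0.30 in Jurkat at day 10, 0.72 ± 0.27 at day 8 (edgeR adjusted p = 0.123) and 0.21 in 6T-CEM at day 5. In 6T-CEM at day 10 the change was -0.89 ± 0.27 (edgeR adjusted p = 0.064). ANXA3 was higher in Jurkat than in 6T-CEM sh-NC cells at day 10 (1.03 ± 0.28, edgeR adjusted p = 0.00938), a call lost without either 6T-CEM library (edgeR adjusted p up to 0.065).

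Of 10 S100 and calcium-binding partners listed, 7 were tested and 1 was called lower and 1 higher in the mean of the 4 changes, where 12.3% of all genes were called lower and 10.7% higher. S100A10, the light chain that binds ANXA2, was 19.9 and 22.2 CPM in sh-SH2D1A and 25.3 and 25.6 CPM in sh-NC libraries of Jurkat at day 10. At day 8 it was 20.2 and 21.9 CPM in sh-SH2D1A and 27.9 and 28.1 CPM in sh-NC libraries. In 6T-CEM it was 15.9 and 16.9 CPM in sh-SH2D1A and 18.3 and 19.6 CPM in sh-NC libraries at day 10, with the arms apart in each of these tables. At 6T-CEM day 5 it was 27.3 and 28.3 CPM in sh-SH2D1A and 39.0 and 39.1 CPM in sh-NC libraries. Its sh-SH2D1A libraries thus lay below in all 4 tables, as did those of 6.75% of genes tested in all 4. The mean change over the 4 was -0.35 ± 0.05 (edgeR adjusted p = 0.000134). Of the single tables Jurkat at day 8 was called, at -0.42 ± 0.09 (edgeR adjusted p = 0.0229). PDCD6, which binds ANXA7 and ANXA11 in a calcium-dependent way, rose by 0.17 ± 0.03 (adjusted p = 0.0022, edgeR). S100A4 (-0.35 ± 0.15) was not called in the mean (edgeR adjusted p = 0.121) but was lower in 6T-CEM at day 10 (-0.85 ± 0.23, adjusted p = 0.0444).

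Of 6 receptor genes, ANXA2R, described as an ANXA2 receptor, was the 1 tested, and FPR1, FPR2, FPR3, GPR32 and CMKLR1 were under the filter. ANXA2R was 24.0 and 25.3 CPM in sh-SH2D1A and 34.5 and 36.8 CPM in sh-NC libraries of Jurkat at day 10. At day 8 it was 19.9 and 20.1 CPM in sh-SH2D1A and 26.9 and 31.9 CPM in sh-NC libraries. Both Jurkat changes were called, at -0.53 ± 0.11 and -0.56 ± 0.10 (edgeR adjusted p = 0.0223 and 0.014). Of all genes 3.78% were called in either direction at day 10, and 7.13% were called lower at day 8. In 6T-CEM it was 5.05 and 5.17 CPM in sh-SH2D1A and 6.06 and 7.01 CPM in sh-NC libraries at day 10, and 5.39 and 7.47 CPM in sh-SH2D1A and 6.29 and 7.22 CPM in sh-NC libraries at day 5, with no call. The mean change was -0.38 ± 0.08 (edgeR adjusted p = 0.00259), where 12.3% of all genes were called lower.

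Membrane repair genes gave 2 lower and 0 higher calls of 9 tested in the mean change, where 12.3% of all genes were called lower and 10.7% higher. They were DYSF, dysferlin (-0.53 ± 0.14, edgeR adjusted p = 0.0145), and CAPNS1, the small calpain subunit (-0.14 ± 0.03, adjusted p = 0.0096). DYSF was called in no single table by edgeR. Its change was -0.7 in Jurkat at day 8, -1.01 at day 10, 0.027 in 6T-CEM at day 5 and -0.418 at day 10. DYSF was under 1 CPM in the sh-SH2D1A libraries of both Jurkat tables, and its lowest count was 21. PDCD6IP (ALIX) was at 0.11 ± 0.04 in the mean and CAPN2, a calpain with at most 36 counts, at 0.72 ± 0.33, neither called. In 6T-CEM at day 10 alone 1 was lower and 3 were higher, where 14.0% of genes were called: AHNAK, a large membrane scaffold that binds the ANXA2 and S100A10 complex, at -0.72 ± 0.09 (edgeR adjusted p = 0.00119), CHMP4B, an ESCRT-III subunit, at 0.26 ± 0.04 (0.00552), CAPN1, a calpain, at 0.22 ± 0.04 (0.00693) and PDCD6IP at 0.18 ± 0.04 (0.0118). AHNAK, CHMP4B and CAPN1 were named after their values were seen. Elsewhere AHNAK was at -0.05 in Jurkat at day 10, 0.39 at day 8, 0.20 in 6T-CEM at day 5 and -0.05 in the mean, with no call. Of 7 phosphatidylserine exposure genes tested, 0 were called in the mean by edgeR, where PLSCR3 was at -0.33 ± 0.13, TMEM30A at -0.12 ± 0.05, ATP11A at 0.08 ± 0.04 and the scramblase ANO6 at -0.06 ± 0.03. In this list 2 genes had an unadjusted p under 0.05 and DESeq2 called 1. In Jurkat at day 8, where 12.4% of all genes were called, 3 of its 7 genes were called by edgeR, with PLSCR3 lower at -0.47 ± 0.12 (adjusted p = 0.0466), TMEM30A, a flippase subunit, lower at -0.30 ± 0.05 (0.0115) and ATP11A, a flippase, higher at 0.22 ± 0.06 (0.0487). In the glucocorticoid response list, whose hormone induces ANXA1, 3 of 8 tested were lower and 1 higher in the mean change, where 12.3% of all genes were called lower and 10.7% higher. ZBTB16, a zinc finger repressor, ranged from 1.53 to 1.77 CPM in sh-SH2D1A and from 10.8 to 12.5 CPM in sh-NC libraries of 6T-CEM at day 10 (log2 change -2.81 ± 0.19, edgeR adjusted p = 6.79e-05). At 6T-CEM day 5 it ranged from 2.64 to 3.33 CPM in sh-SH2D1A and from 9.50 to 10.1 CPM in sh-NC libraries, and in Jurkat at day 10 from 0.877 to 0.893 CPM in sh-SH2D1A and from 2.49 to 2.83 CPM in sh-NC libraries. Its Jurkat day 8 levels ranged from 0.774 to 1.12 CPM in sh-SH2D1A and from 1.24 to 1.94 CPM in sh-NC libraries, the smallest of its 4 changes and not called (-0.75 ± 0.37, edgeR adjusted p = 0.234). Its arms did not overlap in any table, as was so, with sh-SH2D1A below, for 6.75% of genes tested in all 4. Its mean change was -1.71 ± 0.13 (edgeR adjusted p = 4.28e-07). DUSP1, a MAP kinase phosphatase, was at -0.44 ± 0.07 (0.000253) and PER1, a clock repressor, at -0.27 ± 0.07 (0.0134). KLF9 was at 0.33 ± 0.11 (0.0472), a call lost in all fits that left out 1 library except those without 6T-CEM day 5 sh-SH2D1A replicate 1 or Jurkat day 10 sh-NC replicate 1, and NR3C1, the receptor, was not called in the mean, nor were TSC22D3, FKBP5 and SGK1, which the hormone induces. In single tables NR3C1 was higher in 6T-CEM at day 10 (0.36 ± 0.07, edgeR adjusted p = 0.00879) and SGK1 lower in Jurkat at day 8 (-1.09 ± 0.25, adjusted p = 0.0288). The median of the mean changes was 0.02 for the S100 and calcium-binding list, 0.05 for membrane repair, -0.03 for phosphatidylserine exposure and -0.24 for the glucocorticoid list, against 0.005 over all genes tested.

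**Figure D4:**
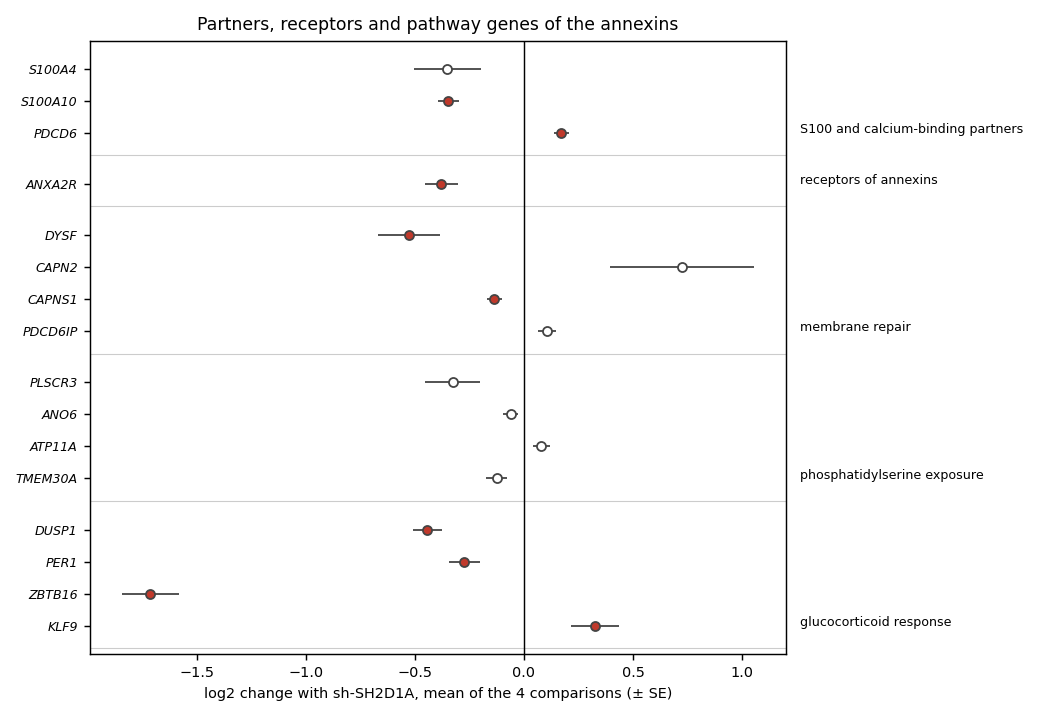
Mean log2 change with sh-SH2D1A over the 4 tables, with its SE from edgeR, of up to 4 genes with the lowest p in each list related to the annexins; filled circles are called at an adjusted p under 0.05. ZBTB16, at -1.71, lies far below the others, and S100A10 and ANXA2R lie near -0.35 and -0.38.

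Among the 5 genes whose log2 CPM followed ANXA1 most closely over the 16 libraries, of 13793 ranked, were PREX2 (Pearson r = 0.992), ADCYAP1 (0.992), TDRD9 (0.985) and LAIR1 (0.977). PREX2 is a Rac exchange factor, ADCYAP1 the neuropeptide PACAP and LAIR1 an inhibitory collagen receptor. With the mean of each table subtracted, which takes out line and day, the 5 included CHST11 (0.979), ADCYAP1 (0.976), PREX2 (0.976) and LAPTM5 (0.975), so ADCYAP1 and PREX2 were on both lists. With Spearman's rho in place of r, 2 of the 5 genes of each list remained. The log2 change of PREX2 with sh-SH2D1A was -0.91 in Jurkat at day 10, -0.83 at day 8, -1.77 in 6T-CEM at day 10 and -1.03 at day 5. The points share 4 tables and 2 arms, so these r values describe the groups as much as the genes. On the same within-table measure the members stood at 0.837 for ANXA2, 0.729 for ANXA11, 0.280 for ANXA6, 0.270 for ANXA7, 0.127 for ANXA5 and -0.535 for ANXA4. The knockdown difference, for which ANXA1 was chosen, remains once table means are subtracted. These member values therefore largely restate the knockdown changes and are no separate evidence of following ANXA1. ANXA2 was at -0.679 over the 16 libraries before the table means were subtracted, since 6T-CEM had more of it and less ANXA1.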

How the data were processed

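The 16 libraries of messenger RNA were all analysed. The values are whole-number counts per Ensembl gene, deposited by the authors in 4 tables, 1 for each line and day, with no normalisation. HISAT2 2.2.0, StringTie and the hg38 build are named in the submitters' processing notes; how counts were made from alignments, with which annotation and strand setting, is not given in the sources used here. Positions, exon lengths and strands come from GENCODE 29 and promoters from RefSeq.

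Each table was fitted on its own (edgeR 4.0.16 in R 4.3.3, filterByExpr with a minimum count of 10, TMM, quasi-likelihood test, two-sided, Benjamini-Hochberg over all genes tested), and all 16 libraries together for the mean, the differences between changes and the sh-NC comparisons. CPM were TMM-scaled over 16 libraries. Alternatives were DESeq2 1.42.0 and its size factors, other filters, a replicate block, all 16 libraries in 1 fit and each library left out; leaving out the 6T-CEM day 5 table was chosen after seeing the data. The fits were tested on simulated data. Same-numbered libraries did not deviate together (r = 0.021 to 0.044), so numbers were not taken as pairs. The members and lists were chosen with earlier results of these data known. All 7 members were named, as were the up to 4 genes of each list with the lowest p in the mean change and the 5 genes most like ANXA1; items withheld for evaluation are not reported here.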

Additional observations from a re-analysis of the deposited data

Results flagged for a closer look

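The fall of SH2D1A itself differed between groups. The Jurkat minus 6T-CEM difference of its log2 change at day 10 was -0.599 (edgeR adjusted p = 0.0405), with -1.60 in Jurkat and -0.996 in 6T-CEM. The day 10 minus day 5 difference in 6T-CEM was 0.723 (edgeR adjusted p = 0.0181), with -0.996 at day 10 and -1.71 at day 5. SH2D1A was called lower in all 4 tables, so its change differed in size and not in direction.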

How the results depend on the processing

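No result that was called changed direction under any alternative. Results near 0 that were not called did change sign, among them the log2 changes of ANXA5 (-0.188 to 0.004 in Jurkat at day 8, -0.051 to 0.048 in the mean), ANXA6 (-0.205 to 0.099 in 6T-CEM at day 5) and ANXA7 (-0.171 to 0.058 in 6T-CEM at day 5) and the ANXA1 difference between the 6T-CEM sh-NC days (-0.2 to 0.334). Counts of relatives called moved as follows, and the cause was not tested. With no filter on low counts, 1 relative was called in place of 2 in each of Jurkat day 8 and 6T-CEM day 10, and 0 in place of 1 in Jurkat at day 10; of the annexins in the 6T-CEM sh-NC day comparison 1 was called in place of 2. With all 16 libraries in 1 fit, 1 was called in place of 2 in Jurkat at day 8, 0 in place of 2 in 6T-CEM at day 10 and 1 in place of 0 in 6T-CEM at day 5. The DESeq2 Wald test called 2 in place of 1 in Jurkat at day 10, 1 in place of 0 in 6T-CEM at day 5 and 2 in place of 0 in the Jurkat sh-NC day comparison. DESeq2 size factors and a floor of 10 counts that all libraries of 1 group must reach each called 1 there, ANXA1. The replicate block called 1 in Jurkat at day 8, 2 in Jurkat at day 10, 1 in 6T-CEM at day 5 and 1 in the Jurkat sh-NC day comparison; since the numbers do not pair the libraries, it carries no weight of its own.

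Leaving out 1 library gave 1 to 2 relatives in Jurkat at day 8, 0 to 1 at day 10, 1 to 2 in 6T-CEM at day 10, 0 to 1 at day 5, 2 to 4 in the mean, 0 to 1 in the 6T-CEM day difference of the change, 5 to 5 annexins between the lines and 1 to 2 between the 6T-CEM days. Over all genes, calls in Jurkat at day 8 were 2381, but 873 with no filter and 1323 with all 16 libraries, and 633 to 2978 with a library left out. In Jurkat at day 10 they were 721, but 0 with no filter (3533 at an unadjusted p under 0.05, edgeR) and 1423 with the block. In 6T-CEM at day 10 they were 2752, but 1099 with no filter and 916 with all 16 libraries; at day 5 they were 412, but 2188 with the block, 1118 with DESeq2, 3108 with all 16 libraries and 298 to 2865 with a library left out. DESeq2 called 423 in place of 179, 57 in place of 1 and 611 in place of 150 genes in the 3 differences of the change, and 1542 in place of 749 between the Jurkat sh-NC days; no filter gave 3 in place of 1 in the Jurkat day difference.

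The SH2D1A call in Jurkat at day 10 was lost with no filter (-1.60, edgeR adjusted p = 0.139). ANXA4 had 216 to 474 counts per library and ANXA1 as few as 45, where counting error is largest. Levels per length depend on the exon lengths used, and the 6T-CEM day 5 values rest on libraries that differ more than the rest. A fit with a library left out has no pair in that group and lacks its spread, so calls gained there are no separate support.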
